A study of Mus musculus with 10 samples.

Results

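GATA2, GATA1, GATA3 and the GATA cofactor FOG1, encoded by Gata2, Gata1, Gata3 and Zfpm1, were followed through 5 stages of blood cell formation in a mouse embryonic stem (ES) cell culture. These 4 genes were found by an exact match of their symbols, and all 4 were among the 55487 genes counted and among the 22596 that passed the filter on low counts. Strand-specific, rRNA-depleted sequencing of nuclear RNA gave 2 libraries for each stage. The ES stage was the undifferentiated HM-1 line. The hemangioblast stage (HB) was the FLK1+ mesoderm sorted from embryoid bodies grown for 3 days in serum. Blast culture of HB cells gave 3 sorted populations: hemogenic endothelium 1 (HE1), KIT+ TIE2+ CD41-; hemogenic endothelium 2 (HE2), KIT+ TIE2+ CD41+; and hematopoietic progenitors (HP), KIT+ TIE2- CD41+. No group carried a genetic change or drug treatment that the others lacked. Culture media differed by stage, with the cytokine LIF in ES medium and VEGF among the additions to blast culture. Across those steps stage and medium cannot be told apart. All libraries came from 1 ES cell line. The labels do not say whether replicates were separate cultures, while the study, in plotting Mecom levels over these stages, calls its 2 replicates biologically independent. How they were kept apart is not described, so p-values measure only the spread between these libraries.

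GATA factors are zinc-finger proteins that bind DNA at GATA sequences. GATA2 is needed in hemogenic endothelium and in stem and progenitor cells. GATA1 is needed for red cells, megakaryocytes and mast cells. As erythroid precursors mature, GATA1 takes over sites that GATA2 held, including sites at the Gata2 gene itself, and Gata2 is switched off. FOG1 binds GATA1 and GATA2 without touching DNA and brings in corepressors such as the NuRD and CtBP complexes. GATA3 is best known in T and innate lymphoid cells, and GATA4 to GATA6 in heart, gut and other mesoderm and endoderm.

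On GRCm38 (mm10) Gata1 lies on the minus strand at chrX:7959260-7978071, Gata2 on the plus strand at chr6:88193891-88207032, Gata3 on the minus strand at chr2:9857078-9890034 and Zfpm1 on the plus strand at chr8:122282141-122337251. RefSeq (GRCm38.p6) places 1 start site in the Gata1 promoter table and 2 in that of Gata2, the distal one at the first base of the gene. The 250 bases upstream of each are shown, at chrX:7967911-7968160 on the minus strand for Gata1, chr6:88193641-88193890 on the plus strand for the distal Gata2 start and chr6:88198414-88198663 on the plus strand for the proximal one, since the ratio of these genes carries the main result. Capitals mark GATA, CACCC or CCAAT on either strand.
Gata1: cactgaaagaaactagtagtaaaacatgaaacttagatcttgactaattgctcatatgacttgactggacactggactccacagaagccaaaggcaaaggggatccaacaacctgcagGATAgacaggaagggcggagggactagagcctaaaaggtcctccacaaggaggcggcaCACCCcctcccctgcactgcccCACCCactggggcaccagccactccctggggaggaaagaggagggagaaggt
Gata2 distal: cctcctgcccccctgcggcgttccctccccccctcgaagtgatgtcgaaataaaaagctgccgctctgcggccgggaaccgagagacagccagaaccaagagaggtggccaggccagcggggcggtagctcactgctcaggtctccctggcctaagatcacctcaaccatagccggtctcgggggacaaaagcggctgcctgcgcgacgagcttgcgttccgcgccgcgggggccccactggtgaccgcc
Gata2 proximal: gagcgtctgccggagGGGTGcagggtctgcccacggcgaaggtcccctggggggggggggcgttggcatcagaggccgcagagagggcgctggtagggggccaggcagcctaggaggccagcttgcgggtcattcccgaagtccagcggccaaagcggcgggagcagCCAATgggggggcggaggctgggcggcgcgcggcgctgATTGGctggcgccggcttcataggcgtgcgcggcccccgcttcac

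The Gata1 window held GATA once, from 132 to 129 bases before the start, and CACCC, the letters that KLF factors such as KLF1 can bind, at 74 to 70 and 52 to 48 bases before it. Neither Gata2 window held GATA. The proximal Gata2 window held CACCC once and CCAAT at 2 places, and the distal window held none of the 3 words. The Gata3 and Zfpm1 windows each held CACCC at 3 places, a pair of which overlapped by 1 base in Gata3, and no GATA or CCAAT. Such short words are common: of 32851 mouse promoter windows of this length, 53.6% held GATA, 52.0% CACCC and 33.8% CCAAT. The longer GATA word AGATAA, with T allowed as its first letter and G as its last, was in 26.5% of windows, the E-box word CAGCTG or its variant CATCTG in 25.5% and the RUNX word TGTGGT or its variant TGCGGT in 18.6%, and none of these was in any of the 5 windows of the 4 genes. A match is a description of the letters in a window and not a binding site.

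Total counts ranged from 24920434 to 58782055 per library, and 3 counts, taken as the floor of detection, corresponded to 0.0532 to 0.126 CPM (counts scaled to a fixed library size, with TMM factors). This floor covers counting error only. Sorting markers followed the labels in part: Kdr (FLK1) was at 956 and 1284 CPM in HB against 2.43 and 2.70 in ES, and Tek (TIE2) was higher in HE1, at 564 and 294 CPM, than in HP, at 61.5 and 64.1 CPM. Itga2b (CD41) was already at 227 and 127 CPM in HE1, the population sorted as CD41-, against 505 and 469 CPM in HE2. HE1 replicate 2 stood apart from HE1 replicate 1, with a Pearson correlation of 0.967 against 0.983 to 0.994 in the other stages. The summed level of 6 ES cell markers was 106 CPM in it against 46.6 CPM in replicate 1, that of 5 cardiac muscle markers 86.0 against 22.1 CPM and that of 6 endothelial markers 1796 against 2999 CPM. Klf4 made up 39.8 CPM of the ES cell sum in replicate 1 and was lower, at 26.8 CPM, in replicate 2. Each other ES cell marker was higher in replicate 2, with Pou5f1 at 26.2 against 2.82 CPM. Most of the cardiac sum was Tnnt2, at 74.2 against 16.0 CPM, and Nkx2-5 was not higher (4.03 against 4.33 CPM). Calls of the 4 genes and counts of list genes in comparisons with HE1 are therefore also given without HE1 replicate 2 where leaving it out changed them. The HE2 libraries differed as well, with an endothelial sum of 1781 CPM in replicate 1 and 964 CPM in replicate 2. List counts without an HE2 library were not taken. In bulk libraries such as these, fewer cells of a type and less RNA per cell cannot be told apart.

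Gata1 was barely detected in ES libraries (0.727 and 0.487 CPM) and low in HB (2.51 and 2.65 CPM) and HE1 (5.55 and 2.41 CPM). It reached 24.5 and 38.5 CPM in the HE2 libraries and 75.8 and 65.7 CPM in those of HP. Every library of HE2 was above every library of ES, HB and HE1, and both HP libraries were above both of HE2. HB and HE1 overlapped, since HE1 replicate 2 lay just below both HB libraries. The stage means spanned 117-fold from ES to HP, the widest span of the 4 genes.

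Gata2 levels were 4.01 and 4.42 CPM at ES. The gene stood at 65.8 and 81.6 CPM in HB, at 93.5 and 53.5 CPM in HE1, at 63.5 and 59.1 CPM in HE2 and at 48.8 and 35.9 CPM in HP. ES lay far below all other libraries. HB, HE1 and HE2 could not be put in order, because the HE1 libraries enclosed all those of HB and HE2, while both HP libraries lay below every other differentiated library. 

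Gata3 started from 4.11 and 3.13 CPM in the ES libraries. The HB libraries held 29.2 and 37.2 CPM, those of HE1 30.9 and 20.8 CPM, those of HE2 17.7 and 13.5 CPM and those of HP 9.76 and 7.59 CPM. Its stage means were lower at each step from HB to HP. HB and HE1 overlapped, and HE1, HE2 and HP did not overlap with each other. Both HP libraries were the lowest of the differentiated ones.

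Zfpm1, the FOG1 gene, was already measurable in ES, at 17.0 and 16.1 CPM. HB libraries had 231 and 255 CPM, HE1 libraries 336 and 281 CPM, HE2 libraries 326 and 379 CPM and HP libraries 472 and 453 CPM. Its means followed the same order as those of Gata1, ES, HB, HE1, HE2 and HP, but most of its climb came at the first step. HE1 and HE2 overlapped, while ES, HB and HP each stood clear of the other stages.

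**Figure D1:**
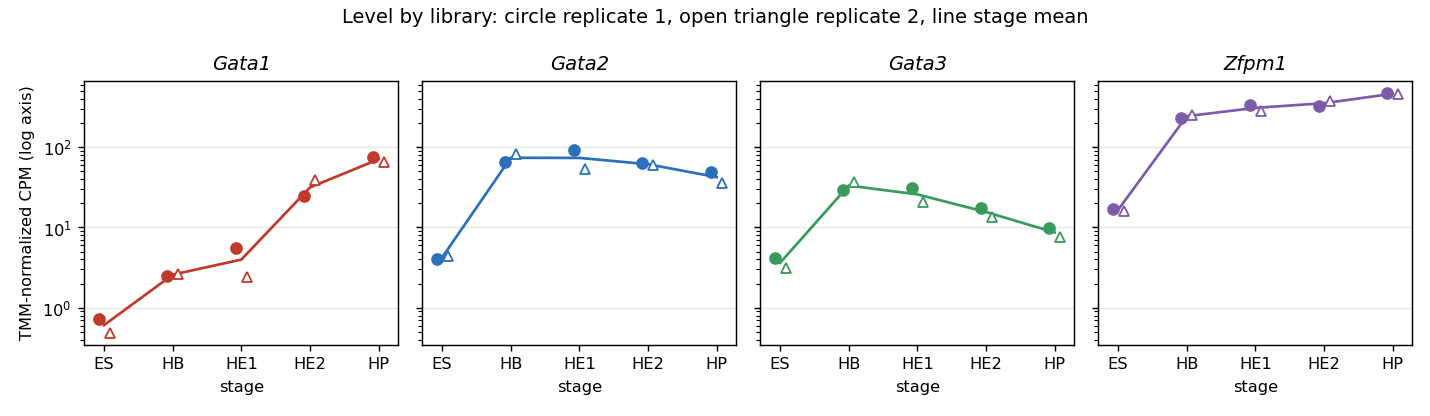
TMM-normalized CPM (log axis) of Gata1, Gata2, Gata3 and Zfpm1 by stage, with circles for replicate 1, open triangles for replicate 2 and a line through the stage means. Gata1 climbed from 0.607 CPM in ES to 70.7 CPM in HP, whereas Gata2 and Gata3 were lower in HP, at 42.3 and 8.68 CPM, than in HB, at 73.7 and 33.2 CPM, or HE1, whose libraries overlapped those of HB.

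The first comparison asked which genes are switched on when ES cells become FLK1+ mesoderm. All 4 genes rose in HB against ES by edgeR's quasi-likelihood test (adjusted p under 0.05 and at least 2-fold, the criteria for every call given here), where 11.5% of tested genes rose. Gata2 rose most, by 4.13 on the log2 scale (SE 0.286, 17.5-fold, Benjamini-Hochberg adjusted p = 3.34e-06). Zfpm1 rose by 3.88 (SE 0.171, 14.7-fold, adjusted p = 4.09e-07) and Gata3 by 3.19 (SE 0.280, 9.14-fold, adjusted p = 1.47e-05). Gata1 rose by 2.05 (SE 0.413, 4.13-fold, adjusted p = 0.00275), but from a level near 0, and stayed under 3 CPM. All 4 also remained called above ES in HE1, HE2 and HP, where 20.3%, 16.3% and 16.7% of tested genes were higher than in ES.

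The second comparison, HE1 against HB, covers the move from mesoderm to endothelium. None of the 4 genes was called by edgeR, limma-voom or DESeq2, although 20.9% of tested genes were; at an unadjusted p under 0.05, 1 of the 4, Zfpm1, passed, beside 5326 higher and 4585 lower genes of the 22596. The log2 difference of Gata2 was -0.01, with a 95% interval from -0.55 to 0.54, and it was 0.35 without HE1 replicate 2 and -0.51 without HE1 replicate 1. Gata3 differed by -0.37 (interval -0.93 to 0.20, adjusted p = 0.292) and Zfpm1 by 0.34 (interval 0.01 to 0.68, adjusted p = 0.105). Gata1 differed by 0.61 (interval -0.20 to 1.42, adjusted p = 0.226), and this value rested on which HE1 library was used. Without HE1 replicate 2 it was 1.11 and called (adjusted p = 0.0296), and without HE1 replicate 1 it was -0.14.

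The third comparison addressed the gain of CD41 within the hemogenic endothelium, and Gata1 was the 1 of the 4 genes called between HE1 and HE2, where 8.64% of tested genes were called. It rose by 3.00 on the log2 scale (SE 0.360, 7.99-fold, adjusted p = 0.00138). The difference was 2.50 without HE1 replicate 2 and 3.73 without HE1 replicate 1, and Gata1 was called with any 1 library left out, with adjusted p from 0.000471 to 0.00984, while the number of genes called in all, 1953, ran from 420 without HE2 replicate 2 and 628 without HE1 replicate 2 to 3207 without HE2 replicate 1 and 4295 without HE1 replicate 1. Gata2 changed by -0.26 (interval -0.81 to 0.29, adjusted p = 0.455) and Zfpm1 by 0.19 (interval -0.14 to 0.53, adjusted p = 0.369). Gata3 was lower by 0.73 on the log2 scale without reaching the threshold (interval -1.30 to -0.16, adjusted p = 0.0790). Against HB, HE2 had 2 of the 4 called, where 20.7% of genes were: Gata1, higher by 3.61 (SE 0.371, adjusted p = 5.98e-05), and Gata3, lower, with a log2 difference of -1.10 (SE 0.258, adjusted p = 0.00903). The Gata3 call was lost without HB replicate 2, at -0.92 (adjusted p = 0.0718), and without HE2 replicate 2, at -0.91 (adjusted p = 0.0723).

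Loss of TIE2, from HE2 to HP, gave no call for any of the 4 genes, and 0.0% of all tested genes were called by edgeR. At an unadjusted p under 0.05, 670 genes were higher and 1113 lower in HP, and limma-voom called 62 genes and DESeq2 301. Gata1 was higher in both HP libraries than in either HE2 library, with a log2 difference of 1.17 (SE 0.325, interval 0.45 to 1.89, adjusted p = 0.244). DESeq2 called it (adjusted p = 0.0312) and limma-voom did not. Gata2 differed by -0.53 (interval -1.08 to 0.02), Gata3 by -0.84 (interval -1.42 to -0.26) and Zfpm1 by 0.39 (interval 0.06 to 0.73), with adjusted p of 0.664, 0.309 and 0.486.

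Across the whole endothelial-to-hematopoietic transition, from HE1 to HP, 2 of the 4 genes were called, in opposite directions, against 16.5% of tested genes. Gata1 rose by 4.17 on the log2 scale (SE 0.375, 18.0-fold, adjusted p = 0.000109) and Gata3 fell by 1.57 (SE 0.263, 2.97-fold lower, adjusted p = 0.00229). Without HE1 replicate 2 these differences were 3.67 and -1.83, both called. Gata2 passed the p threshold but was lower by less than 2-fold, with a log2 difference of -0.79 (SE 0.249, 1.73-fold lower, adjusted p = 0.0403). Without HE1 replicate 2 it was -1.14 and called (adjusted p = 0.00678), and without HE1 replicate 1 it was -0.31. Zfpm1 passed the p threshold in the other direction, at 0.59 (SE 0.151, 1.5-fold, adjusted p = 0.0187). Set against HB in place of HE1, where 21.8% of genes were called, HP again had Gata1 called higher, by 4.78 (SE 0.386), and Gata3 called lower, at -1.94 (SE 0.265). There Gata2 was at -0.80 (SE 0.248, adjusted p = 0.0324) and Zfpm1 at 0.93 (SE 0.152, adjusted p = 0.000998), both under 2-fold, and Gata2 was called without HP replicate 1, at -1.04 (adjusted p = 0.0453). These comparisons share the HP libraries.

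**Figure D2:**
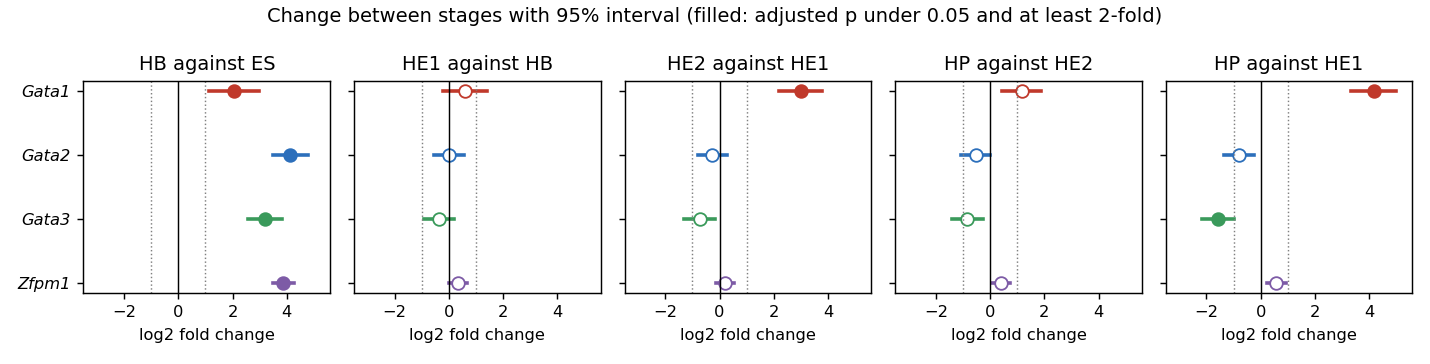
Log2 fold change (horizontal axis) of each gene in 5 stage comparisons, with 95% intervals as bars, filled points for calls and dotted lines at 2-fold. All 4 points are filled in HB against ES, none in HE1 against HB or HP against HE2, Gata1 alone in HE2 against HE1 (3.00), and Gata1 (4.17) and Gata3 (-1.57) in HP against HE1.

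Levels of different genes were then compared within a library as CPM per kilobase of annotated exons (FPKM), which removes depth from the comparison. The Gata1 to Gata2 ratio stood at 0.406 and 0.251 for ES, 0.0851 and 0.0721 for HB and 0.132 and 0.1004 for HE1. The HE2 libraries gave ratios of 0.854 and 1.44, and the HP libraries 3.44 and 4.05. Gata2 thus exceeded Gata1 more than 7-fold in each HB and HE1 library, the 2 genes were near balance in HE2 and on opposite sides of it in its 2 libraries, and Gata1 exceeded Gata2 at least 3-fold in both HP libraries. On the log2 scale the stage mean was -1.65 ± 0.49 for ES, -3.67 ± 0.17 for HB, -3.12 ± 0.28 for HE1, 0.15 ± 0.53 for HE2 and 1.90 ± 0.17 for HP (SD, n = 2). The stages differed by an exact permutation test over the 10 libraries (F = 81.1, p = 0.00106, 1 of 945 splits and the smallest p it can give), and a pair of stages with 2 libraries each could not reach a p below 0.333. Without division by exon length the mean in HE2 was -0.997 and that in HP 0.75, so the balance in HE2 depended on that division, which shifts all libraries by the same amount.

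The difference in Gata1 was the larger part of this shift. From HE1 to HP mean Gata1 went from 1.63 to 29.0 FPKM and mean Gata2 from 13.6 to 7.84 FPKM. Of the summed FPKM of Gata1, Gata2 and Gata3, Gata1 made up 4.63% ± 0.541 at HB, 7.23% ± 1.55 at HE1, 45.3% ± 10.0 at HE2 and 74.5% ± 2.04 at HP (SD, n = 2). The share of Gata2 was 59.2% ± 0.0691, 62.4% ± 1.30, 40.6% ± 5.98 and 19.98% ± 1.76 in the same stages, and that of Gata3 36.2% ± 0.610, 30.4% ± 2.85, 14.1% ± 4.02 and 5.57% ± 0.274. In ES, where all 3 were low, Gata3 had the largest mean share, 46.7% ± 4.44, beside 40.6% ± 6.77 for Gata2, but the 2 libraries disagreed on the order. Gata3 and Gata2 had 49.8% and 35.8% in ES replicate 1 and 43.6% and 45.4% in ES replicate 2. The summed level itself was 23.1 ± 3.54 FPKM at HB, 21.7 ± 7.95 at HE1, 28.2 ± 2.74 at HE2 and 39.0 ± 4.99 at HP.

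Other GATA genes were measured in the same libraries. Gata4, a regulator of heart and endoderm, had 199 and 229 CPM in the HB libraries, 184 and 156 CPM in those of HE1, 63.8 and 31.9 CPM in those of HE2 and 10.97 and 23.4 CPM in those of HP. Gata6, its close relative, had 173 and 177 CPM in the HB libraries, 63.6 and 62.6 CPM in those of HE1, 26.3 and 12.5 CPM in those of HE2 and 8.03 and 9.98 CPM in those of HP. Both rose in HB against ES, by 5.62 (SE 0.424) and 8.59 (SE 0.395) on the log2 scale, and both fell in HE2 against HE1, by 1.83 (SE 0.354) and 1.70 (SE 0.275), where 5.38% of tested genes fell. Of the 5 other family genes (Gata4, Gata5, Gata6, Zfpm2 and Trps1), 3 rose in HB against ES, where 11.5% of tested genes rose (median log2 change 2.27 against 0.00 over all tested genes). Gata5 and Zfpm2 rose and Gata6 fell in HE1 against HB, where 12.7% of tested genes rose and 8.19% fell. In HP against HE1 4 of the 5 fell, beside 11.2% of tested genes (median -2.81 against -0.02). Gata5 stayed at or under 0.990 CPM in every library. The filter on low counts asked for 0.303 CPM, before TMM scaling, in at least 2 libraries, and Gata5 reached this in HE1 alone, so that its rise and fall were fixed by the filter; without it 1 gene rose in HE1 against HB and 3 fell in HP against HE1 (median -2.33). Counted per length over Gata1 to Gata6, Gata1, Gata2 and Gata3 together made up 20.9% and 22.9% of the sum at HB, 32.4% and 24.4% at HE1, 56.2% and 74.8% at HE2 and 91.3% and 82.5% at HP. Gata4 alone made up 52.3% ± 0.530 of it at HB and 58.2% ± 3.39 at HE1 (SD, n = 2). Marker sums of other cell types differed too. Endothelial markers summed to 2999 and 1796 CPM in HE1 and 438 and 496 CPM in HP. Cardiac muscle markers summed to 22.1 and 86.0 CPM in HE1 and 2.90 and 4.48 CPM in HP. Smooth muscle markers overlapped, at 622 and 938 CPM in HE1 and 760 and 362 CPM in HP. The part of cell composition in these GATA levels was not tested.

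**Figure D3:**
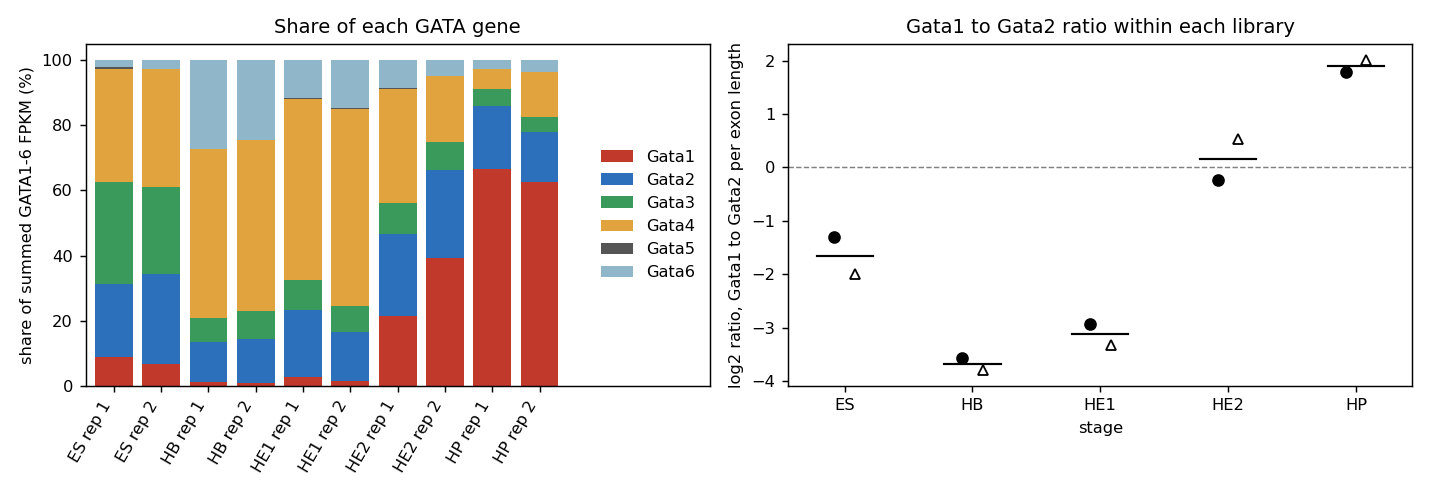
Left, share (%) of each GATA gene in the summed FPKM of Gata1 to Gata6 for each library; right, log2 ratio of Gata1 to Gata2 per exon length by stage, with circles for replicate 1, open triangles for replicate 2 and bars at the means. Gata4 filled over 50% of each HB and HE1 bar and Gata1 over 60% of each HP bar, and the ratio ran from -3.67 in HB to 1.90 in HP.

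Zfpm1 was compared with the summed level of the 3 GATA members per length. It was above that sum in every library, 2.33- and 2.55-fold at ES, 3.21- and 2.84-fold at HB, 3.51- and 4.97-fold at HE1, 3.55- and 3.60-fold at HE2 and 3.17- and 3.65-fold at HP. The highest value was that of HE1 replicate 2, and the HB, HE1, HE2 and HP ranges otherwise lay close together while the GATA member with the largest share changed. Zfpm2, which encodes the relative FOG2, was lower than Zfpm1 per length in every library, by 22.5-fold at the least and 166-fold at the most. Zfpm2 peaked in HE1, at 33.6 and 26.9 CPM, and fell in HP against HE1 by 1.85 on the log2 scale (SE 0.204, adjusted p = 0.000292).

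**Figure D4:**
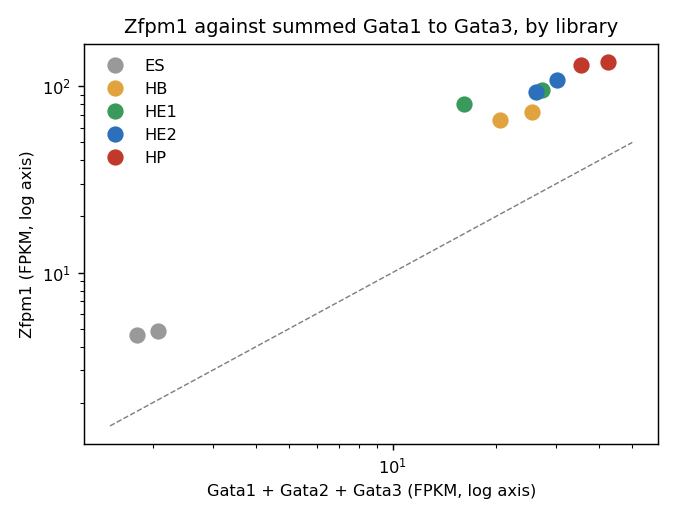
Zfpm1 (FPKM, log axis) against the summed FPKM of Gata1, Gata2 and Gata3 (log axis), with 1 point for each library, colored by stage, and a dashed line of equal levels. All 10 points lie above the line, from 2.33-fold in ES replicate 1 to 4.97-fold in HE1 replicate 2.

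Gata3 and Zfpm1 overlap other annotated genes. The opposite-strand gene 4930412O13Rik lies inside Gata3 without shared exon bases, and its level moved the same way: 11.6 and 7.85 CPM at HB, 6.31 and 4.36 at HE1, 2.28 and 0.571 at HE2 and 0.342 and 0.699 at HP. It fell in HP against HE1 by 3.38 (SE 0.707, adjusted p = 0.00704). Fragments were counted by strand, and the part of either gene in the other's counts was not tested. The same-strand gene 9230102O04Rik shares 77 exon bases with Gata3 but reached 0.507 CPM at most, and the opposite-strand Gm13256 shares 155 and reached 0.165 CPM at most. Zfpm1 lies within the annotated span of Galnt2l, on the same strand and with no exon base in common. Galnt2l was at 91.5 to 171 CPM in the 10 libraries, and in ES, at 148 and 152 CPM, it was above Zfpm1. It differed by -0.63 (SE 0.191) on the log2 scale in HB against ES, where Zfpm1 rose by 3.88, and was not called in any comparison. The part of intronic reads of Galnt2l in the Zfpm1 counts was not tested. No other gene lay over Gata1 or Gata2.

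The genes for proteins that bind GATA factors were taken as a list of 17, all of them tested. In HB against ES, where 11.5% of tested genes rose, 10 rose and 0 fell (median log2 change 2.65, 0.00 over all tested genes), with Fli1 (8.17), Lmo2 (7.18) and Erg (6.84) changing most. Fli1 and Erg were under the filter's minimum in both ES libraries and passed it through later stages, and the median of the other 15 was 2.11. Lmo2 and Tal1 encode parts of the complex in which GATA1 or GATA2 works with SCL/TAL1, and Tal1 went from 4.84 to 158 CPM. In HE1 against HB, where 12.7% of tested genes rose, 5 rose and 0 fell, led by Klf1, Erg and Cbfa2t3, but the list median, -0.06, was below the 0.04 of all genes. In HE2 against HE1, where 3.26% of tested genes rose, 6 rose and 0 fell, with a median of 0.35 against -0.08 for all genes: Spi1 (4.40), which encodes PU.1, an antagonist of GATA1, Gfi1b (3.44), a repressor needed in red cells and megakaryocytes, Runx1 (2.87), Klf1, Lyl1 and Tal1; without HE1 replicate 2, 4 rose. Spi1 itself was at 1.85 and 2.48 CPM at HE1, 26.3 and 65.9 at HE2 and 82.2 and 56.6 at HP, so it was high in the same stages as Gata1. None of the 17 was called in HP against HE2.

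The corepressor genes behind FOG1 were taken as 16 genes of the NuRD and CtBP complexes and Tacc3. In HB against ES 1 rose, the chromatin remodeler gene Chd3 (1.38), and 1 fell, Ctbp2 (-1.79), where 11.5% of all tested genes rose and 17.3% fell. Mbd2 alone rose in HE1 against HB (1.35), where 12.7% of tested genes rose, and Chd3 alone fell in HE2 against HE1 (-1.31), where 5.38% fell, so that these counts of 1 in 16 were near or under the share over all genes. Chd4, the other large NuRD remodeler, was at 609 to 1131 CPM in every library and was not called in any consecutive comparison. The list median was 0.07 in HB against ES, -0.08 in HE1 against HB, 0.32 in HE2 against HE1 and 0.28 in HP against HE1, beside 0.00, 0.04, -0.08 and -0.02 over all genes.

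Among 19 genes known as erythroid targets of GATA1, 18 were tested and 1 symbol was not matched. In HE2 against HE1, where 3.26% of tested genes rose, 8 rose and 0 fell (median 1.69 against -0.08 over all genes), the most being Gfi1b (3.44), the embryonic globin gene Hbb-bh1 (2.46) and Klf1 (2.26). Without HE1 replicate 2 this count was 5. In HE1 against HB 12.7% of tested genes rose and 8.19% fell, and Gata1 was not called. Of the 18 list genes, 10 rose and 1, Epor, fell (-1.06). Hba-x (6.57), Slc4a1 (6.0) and Hbb-bh1 (5.51) rose most (list median 2.16 against 0.04 over all genes). Without HE1 replicate 2, 12 rose and 0 fell, so that the Epor call was lost, and Gata1 itself was called (1.11, adjusted p = 0.0296 by edgeR). Kel, Slc4a1, Trim10 and Rhag, 4 of the 10, were under the filter's minimum in both HB libraries. Kel, Trim10 and Rhag were also under it in ES and passed through later stages, so that their rise was not independent of the filter, while Slc4a1 reached it in ES. The median of the other 14 tested genes was 0.99. Hbb-bh1 went from 4.59 and 4.53 CPM at HB to 279 and 136 at HE1, 1224 and 1062 at HE2 and 2620.4 and 1553 at HP. Over HE1 to HP, where 5.35% of tested genes rose, 15 of the 18 rose, 12 without HE1 replicate 2, and 0 fell (median 2.67 against -0.02). In HB against ES, where 11.5% of tested genes rose, 5 rose, among them Gfi1b (3.60), Alas2, which went from 0.0177 and 0.0573 to 3.77 and 4.34 CPM, and Epb42, which went from 0.0177 and 0.0287 to 1.35 and 0.873 CPM. Alas2 and Epb42 were under the filter's minimum in ES. None was called in HP against HE2.

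Summed over 4 primitive erythroid markers, the level was 9.68 and 10.8 CPM at HB, 489.9 and 236 at HE1, 1994 and 1554 at HE2 and 4282 and 2251 at HP. From HB to HE1 the sum rose in both libraries while Gata1 was not called, and from HE1 to HE2 and HP both were higher at each step. Between replicates, the sum and Gata1 were both higher in replicate 1 of HE1 and of HP, whereas in HE2 the sum was higher in replicate 1 and Gata1 in replicate 2. The part of a larger share of erythroid cells in the Gata1 result was not tested.

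Of 9 megakaryocyte target genes 8 were tested. In HE2 against HE1, where 3.26% of tested genes rose, 6 rose and 0 fell (median 3.66 against -0.08 over all genes): Pf4, Treml1, Selp (3.92), Nfe2 (3.79), Gp1ba (2.21) and Itga2b (1.46); without HE1 replicate 2, 4 rose. Itga2b encodes CD41, the antigen by which HE2 and HP were sorted from HE1, so its rise in these comparisons was set by the sort and is no independent result. Pf4 and Treml1 stayed at or under 3.19 CPM in every library. These 2 and Gp9 were under the filter's minimum in both HE1 libraries and passed it through HE2 and HP, where they were higher, so that their rise from HE1 was not independent of the filter. Of the other 5 genes 4 rose (median 2.21), and Itga2b, set by the sort, is still counted among these. In HB against ES 3 rose, Gp1ba, Itga2b and Nfe2 (median 0.75 against 0.00), where 11.5% of tested genes did. In HE1 against HB 2 rose, Selp and Itga2b (median 1.59 against 0.04), where 12.7% did, and limma-voom called 1 and 3 rose without HE1 replicate 2. Gp1ba was under the filter's minimum in ES and Selp in HB. In HP against HE1, where 5.35% of tested genes rose, the 8 tested genes rose, 3 of them those that were under the minimum in HE1, and 4 rose without HE1 replicate 2. Itga2b, set by the sort, was also among the 8 genes that rose from HE1 to HP. None of the list was called between HE2 and HP.

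The 11 genes known as GATA2 targets in stem and progenitor cells split by stage. In HB against ES, along with Gata2 itself and 11.5% of tested genes, 8 rose, led by Gfi1 (6.13), Runx1 (4.83) and Lyl1 (4.62), and Kit fell (-1.24). Gfi1 was under the filter's minimum in both ES libraries. In HE1 against HB, where 12.7% of tested genes rose, 5 rose, led by Cd34 (4.45), Lyn (3.64) and Mecom (3.19), and Myc fell; without HE1 replicate 2, 6 rose. In HE2 against HE1, where 3.26% rose, 6 rose, led by Myb (3.57), Runx1 (2.87) and Lyl1 (2.04), with a median of 1.17 against -0.08, and 4 rose without HE1 replicate 2. Myb, which encodes a factor of immature progenitors, was at 22.6 and 7.13 CPM at HE1 and 125 and 227 at HE2. In HP against HE1, where Gata2 was lower but not by 2-fold and 5.35% of tested genes rose, 5 rose, 4 without HE1 replicate 2, and Mecom fell (-3.84), from 81.5 and 54.5 to 2.58 and 7.02 CPM. Of the 11 genes, 1 fell in each of HB against ES, HE1 against HB and HP against HE1. Over all tested genes 17.3%, 8.19% and 11.2% fell, so these counts were near or under that share. Klf1 and Gfi1b stand in both the partner and erythroid lists, and Runx1 and Lyl1 in both the partner and GATA2 lists.

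**Figure D5:**
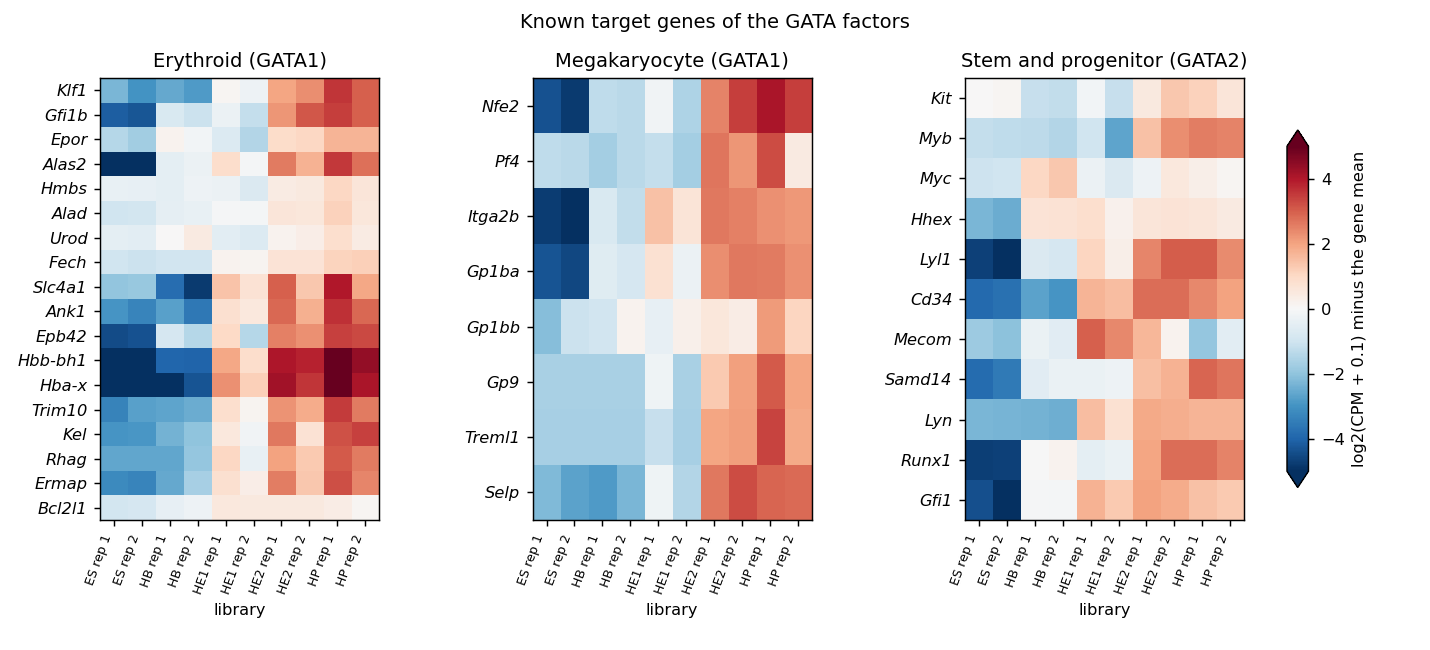
Log2(CPM + 0.1) minus the gene's mean over libraries, in color, for the tested members of the 3 target lists (vertical) in each library (horizontal), with the scale ending at -5 and 5. Erythroid genes such as Hbb-bh1 and Hba-x and megakaryocyte genes such as Selp and Nfe2 had their highest levels in HE2 and HP, and of these Hbb-bh1, Hba-x and Selp were also called higher in HE1 than in HB.

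For each member the most similar genes were taken as the 5 with the highest Pearson correlation of log2 CPM over the 10 libraries, which share stages and are no independent samples, among 18719 genes. Gata1 was closest to Pgd (r = 0.995), Mknk1, F630028O10Rik, Nfe2 (r = 0.992) and Pkd1l3. Nfe2, which encodes a megakaryocyte and erythroid factor, went from 0.388 CPM in ES to 160 CPM in HP. Gata2 was closest to Kdr (r = 0.996), Nkiras2, Tsc22d3, Nynrin and Bmp2. Kdr, the gene of the sorting marker FLK1, had a mean of 1119.8 CPM in HB and 339 CPM in HP. Gata3 was closest to Bace2 (r = 0.987), Mapre2, Mpdz, Zfp334 and Soat1, and Zfpm1 to Bag2 (r = 0.997), Zhx2, Gucd1, Casp6 and Zmiz1. Among the members themselves the correlation was 0.93 for Gata2 with Zfpm1, 0.90 for Gata2 with Gata3, 0.79 for Gata1 with Zfpm1, 0.55 for Gata1 with Gata2 and 0.16 for Gata1 with Gata3. That of Gata3 with Gata4 was 0.97. These values include the ES libraries, where each member had its lowest level. In HP against HE1 Gata2 differed by -0.79 on the log2 scale, while Gata1 differed by 4.17 and Zfpm1 by 0.59. A positive correlation over all libraries thus does not mean that 2 genes moved together after ES.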

How the data were processed

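RNA-seq libraries of 5 stages, 2 each, were analysed from the deposited count files. Per the labels and the file headers, the authors trimmed reads (Trimmomatic), aligned them to mm10 with HISAT2 2.2.1 and counted fragments per gene with featureCounts 2.0.1 on the Ensembl GRCm38 release 102 annotation, reverse-stranded and with fragments over several genes counted for each. A deposited table of 15686 genes holds the authors' stage averages, an expression score normalized by them with edgeR 3.40.2. For the 4 members it differed from the stage means here by 0.16 log2 units at most, and it was not tested.

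Counts were filtered (filterByExpr), scaled by TMM and fitted with stage as the only term in edgeR 4.0.16 (quasi-likelihood F test, R 4.3.3). SE was taken as the absolute log2 fold change over the square root of F. P-values were adjusted (Benjamini-Hochberg) over 22596 genes, and calls needed an adjusted p under 0.05 and at least 2-fold. FPKM was CPM per kilobase of union exon length. limma-voom (limma 3.58.1), DESeq2 1.42.0 and other settings were run as alternatives. No replicate pair agreed within sampling noise.

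The members and gene lists were chosen with earlier results of these data known. Named genes were the 4 members, overlapping genes, the 5 most correlated genes of each member and up to 3 called genes with the largest change in each direction per list and consecutive comparison. Other genes were named after their values were seen: Tal1, Chd4, Mecom in HP against HE1, the sorting markers and the remaining called genes of short lists. Some genes of the lists are not reported here and were left out of their counts.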

Additional observations from a re-analysis of the deposited data

How the results depend on the processing

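Each log2 fold change of the 4 genes was recomputed with limma-voom, DESeq2, total counts, no filter on low counts, a replicate block, library sizes without the 20 top genes and only the 4 libraries compared. In these, 278 of 280 values stayed on their side of the threshold, and Gata2 in HE1 against HB, near 0 and not called, ran from -0.06 to 0.01. The exceptions were Gata1 in HP against HE2, called by DESeq2 (1.17, adjusted p = 0.0312) and without the filter (1.16, adjusted p = 9.26e-05). Over all these alternatives its adjusted p ran from 9.26e-05 to 0.330. The number of genes called in HE2 against HE1, 1953, was 3818 without the filter and 535 with only the 4 libraries, and the share of calls that were higher was 37.7%, 25.0% and 68.0%. In HP against HE2, 0 became 62 (limma-voom), 301 (DESeq2) and 534 (no filter). The cause was not tested.

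With each library left out in turn, a stage left with 1 library was assumed to vary like the others. Calls then ranged from 2804 (without HB replicate 2) to 5553 in HE1 against HB, 420 (without HE2 replicate 2) to 4295 (without HE1 replicate 1) in HE2 against HE1, with 628 without HE1 replicate 2 and 3207 without HE2 replicate 1, 0 to 526 (without HE2 replicate 2) in HP against HE2 and 1905 (without HP replicate 1) to 5460 in HP against HE1. Gata1 in HE1 against HB ranged from -0.14 to 1.11 and Gata2 in HP against HE1 from -1.14 to -0.31. Gata2 in HP against HB was called without HP replicate 1 (-1.04, adjusted p = 0.0453), and ranged up to -0.59. Of 400 such values of the 4 genes, 395 stayed on their side. The list counts without HE1 replicate 2 were an alternative chosen after seeing the data.

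Replicate 1 libraries of different stages deviated from their stage means with correlations from -0.316 to 0.213. With 2 libraries a stage, these values cannot show whether stages shared cultures. With the replicate number as a block 1417 genes were called in HE2 against HE1 and no call of the 4 genes changed. Without division by exon length the log2 ratio of Gata1 to Gata2 was -2.80, -4.82, -4.27, -0.997 and 0.75 from ES to HP. Having 2 libraries a stage limit the precision of every value.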

Other observations

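GATA1 and GATA2 also act in mast cells, and GATA3 in T and innate lymphoid cells, so defining genes of these lineages were read in the same libraries. Of 8 mast cell and basophil genes, 2 passed the filter on low counts. Cpa3, which encodes a mast cell protease, was at 0 in ES and HB, 0.210 and 0 CPM at HE1, 1.80 and 3.05 at HE2 and 5.68 and 2.41 at HP. It rose in HE2 against HE1, where 3.26% of tested genes rose, though not without HE1 replicate 2. It also rose in HP against HE1, where 5.35% rose. It was under the minimum of the filter before HE2 and passed through HE2 and HP, so that this rise was not independent of the filter. Hdc fell in HB against ES (-1.83), where 17.3% of tested genes fell, and rose in HE1 against HB (2.31), where 12.7% rose. Cma1 was at 0 in all 10 libraries, and Fcer1a, Ms4a2, Mcpt4, Mcpt8 and Tpsb2 stayed at or under 0.127 CPM.

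All 7 T and innate lymphoid genes were tested. Zbtb16, which encodes the innate lymphocyte factor PLZF, was at 1.98 and 2.18 CPM at HE1, 9.07 and 18.7 at HE2 and 46.4 and 51.1 at HP, and rose in HE2 against HE1 by 2.74 on the log2 scale (edgeR, adjusted p = 0.0012), while Gata3 was at 30.9 and 20.8, 17.7 and 13.5, and 9.76 and 7.59 CPM in the same libraries. Il7r also rose in HE2 against HE1 but stayed at or under 1.68 CPM and was under the filter's minimum in HE1. Without HE1 replicate 2, 1 of the 7 rose in this comparison in place of 2, where 3.26% of tested genes rose with all libraries. In HE1 against HB 4 of the 7 fell, Thy1 (-3.68), Tcf7 (-2.03), Rora (-1.95) and Bcl11b, where 8.19% of tested genes fell (median -1.68 against 0.04 over all genes). Thy1 was under the filter's minimum in HE1, and without it and 2 more genes under the minimum in both stages the median was -1.82. In HB against ES, where 11.5% of tested genes rose and 17.3% fell, Rora (2.91) and Zbtb16 (2.13) rose and Cd3e fell. Cd3e was at 0 in HB, HE2 and HP and passed the filter through ES alone. None of either list was called in HP against HE2 by edgeR, while limma-voom called 1 of the 7 T and innate lymphoid genes higher.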
